A study of Mus musculus with 12 samples.

Results

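Cytosolic ribosomal protein genes encode the protein parts of the ribosome that translates nuclear messages. They were taken here as the genes with a single symbol in the array annotation that starts with Rpl or Rps and a digit, together with Rplp0, Rplp1, Rplp2 and Rpsa and without the Rps6k kinases. On the Affymetrix MG_U74Av2 array this gave 35 genes of 8251 with a single symbol, 17 of the large subunit and 18 of the small subunit, on 49 probe sets. Of these, 31 genes on 39 probe sets passed a filter on dim signal and were tested among 6414 genes. The 4 genes that did not pass, Rps14, Rps15, Rps20 and Rps27l, had signals between 2.41 and 55.8 on every array. Rplp1 and Rplp2, and Rpl5, Rpl11, Rpl23 and Rps6, which were also looked for, were not among the 35 genes.

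The study measured RNA of mouse embryonic stem cells 1 h after a brief exposure to hydrogen peroxide (H2O2), an oxidant that damages DNA, protein and lipid. All 12 arrays came from clone C2 of the E14tg2a line, which carries targeted I-SceI cutting sites, so every group rests on 1 clone. The control group was 3 samples kept in phosphate-buffered saline (PBS) with no peroxide, whose time in PBS and in the incubator afterwards is not given in the sources used here. The low-dose group was 4 samples given 100 µM H2O2 for 15 min, and the high-dose group 5 samples given 5 mM for 30 min, both in PBS and both followed by 1 h in maintenance medium. Dose and exposure time changed together, so their effects cannot be told apart. The labels do not say whether samples of a group were separate cultures, and the p-values rest only on how far these samples spread, which may be technical. Signal is the deposited MAS5 intensity, in arbitrary units, and log2 differences were taken after adding 10.1 units, which understates the differences of dim genes.

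A ribosome is built from ribosomal RNA and a single copy of most ribosomal proteins, and cells make these proteins at matched rates. Their messages are among the most abundant in growing cells and belong to the TOP class, which starts with a cytosine and a run of pyrimidines and is held back from translation when the kinase mTOR is inhibited, with LARP1 as a binding protein. Some ribosomal proteins also act outside the ribosome, and several have paralogs with narrower expression.

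The first bases of 6 members are shown because this start is what their messages are known to share. Each window runs from 20 bases before to 10 bases from the annotated RefSeq transcript start (GRCm38.p6), 5′ to 3′ on the gene's strand, so it covers the end of the promoter and the start of the first exon. Capitals mark the longest run of a C followed by at least 5 C or T. The windows are Rpl41 at chr10:128549159-128549188 (minus strand), Rps18 at chr17:33955656-33955685 (minus), Rpl7a at chr2:26910787-26910816 (plus), Rps10 at chr17:27635235-27635264 (minus), Rpl13a at chr7:45128736-45128765 (minus) and Rpl39l at chr16:10170208-10170237 (plus).
Rpl41: gacgacacacgggccggctcggaagtgacg
Rps18: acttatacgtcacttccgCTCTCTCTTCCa
Rpl7a: ccacaattCCCTCTTCTTTCTTTCTCCagc
Rps10: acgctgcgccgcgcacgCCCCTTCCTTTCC
Rpl13a: gataagaaaccctgcgacaagaCCTCCTCC
Rpl39l: cctagctcccaggCCTTTCCggatttccgg
The run is 11 bases long in Rps18, 19 in Rpl7a, 13 in Rps10, 8 in Rpl13a and 7 in Rpl39l, and no such run lies in the Rpl41 window. It spans the annotated start in Rps18, Rpl7a and Rps10 and lies after it in Rpl13a. In Rpl39l it lies wholly before the start, outside the annotated message. A RefSeq promoter was at hand for 28 of the 35 genes. Within 20 bases before to 30 after the start, 20 of the 28 (71.4%) held such a run on the sense strand, against 37.9% of 17491 protein-coding genes, with runs wholly before the start counted too. The letters CTTCCG, the core bound by ETS-family factors, lay on either strand within 250 bases before to 50 after the start in 19 of the 28 (67.9%), against 23.5% of the same genes. The searches can overlap, since the first 5 letters of that core are pyrimidines.

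The bright end of the signal scale, where most of these genes lie, was not alike on all arrays, and this touches every comparison with PBS. The highest signal of any probe set was 7206 to 8904 on the PBS arrays, 14976 to 24225 after the low dose and 19733 to 34685 after the high one. The Affymetrix control probe set for the 3′ end of Actb, the gene of β-actin, read 4751 to 6277, 12114 to 14826 and 12370 to 23171 in the same order, while the ratio of its 3′ to its 5′ control probe set, a measure of RNA integrity, lay at 0.871 to 1.99, 1.11 to 1.49 and 1.05 to 1.49. The 12 pluripotency markers were all measured, with summed signals of 27479 to 30621, 34223 to 39809 and 32030 to 37479. These sums hide moves in both directions. From the low to the high dose 2 of the 12 (16.7%) were higher and 3 (25%) lower in limma, where all tested genes gave 13.8% and 15.2%. Lefty1 was 3.86-fold higher and Klf4 3.27-fold lower at the high than at the low dose. Markers of primitive endoderm, a cell type that embryonic stem cell cultures can hold, had summed signals over 15 measured genes of 6095 to 9190, 9311 to 10371 and 1383 to 1603. In the high-dose group 11 of these 15 were lower than at the low dose and 10 lower than in PBS, and 0 of the 15 were higher (limma, 0 also at an unadjusted p under 0.05). After the low dose 6 of the 15 were higher than in PBS and 0 lower (limma, 0 also at an unadjusted p under 0.05). Of 13 fibroblast markers on the array, 9 passed the filter on dim signal, and these ranged from 1251 to 1929 in sum over all arrays. The sum hides moves in both directions: at the low dose against PBS, Fn1 was 1.60-fold higher and Thy1 3.16-fold lower (limma). No marker was at 0, but without detection calls this does not show that each marker was expressed. In bulk RNA, fewer cells of a type and less RNA per cell cannot be told apart, and the part of these shifts in the results was not tested.

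The members' signals varied together from array to array. Among the 19 tested members whose mean signal on the PBS arrays was above 2000, a mark set for bright genes, the median member read 5607, 4149 and 5859 on PBS arrays 1 to 3. It read 10522, 14098, 12984 and 9799 on the low-dose arrays, and 16713, 15558, 12981, 11384 and 12071 on the high-dose arrays. Every treated array therefore lay above every PBS array for this median, and the treated groups overlapped. The median of the 294 other genes above the mark stayed between 2682 and 3430 on all 12 arrays, a lower level than that of the members. The median of 15 other genes with a mean log2 signal above 13 was also higher on every treated array than on the PBS arrays. It read 4896 to 6287 on the PBS arrays, 8272 to 11304 for the low dose and 11037 to 15005 for the high dose. These 15 were chosen over all arrays, the treated ones included. The members took 2.42% to 2.97% of the summed signal of the PBS arrays, 4.74% to 6.25% for the low dose and 5.25% to 7.14% for the high dose. Of the 100 brightest probe sets, members held 9 to 16 on the PBS arrays and 18 on every treated array.

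**Figure D1:**
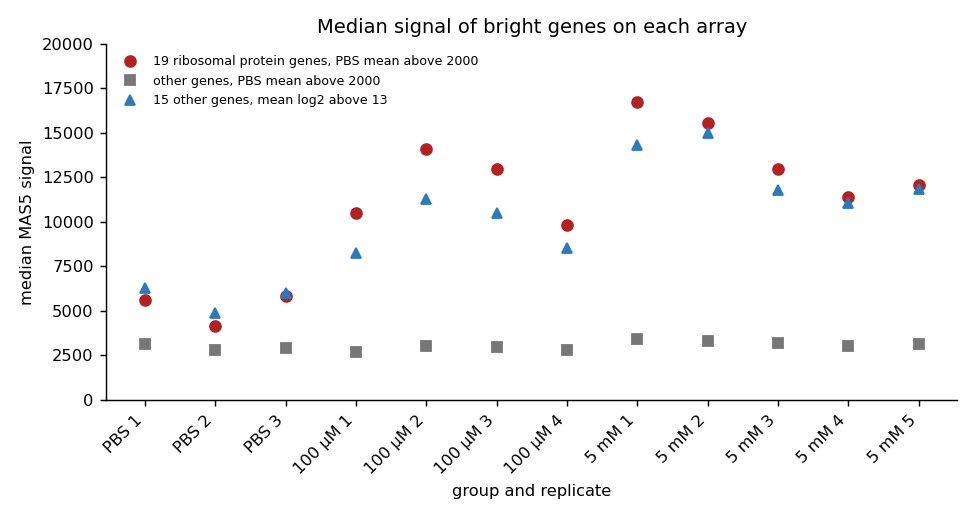
Median signal, in MAS5 units, on each of the 12 arrays for the 19 ribosomal protein genes with a PBS mean above 2000, the 294 other genes above that mark and the 15 other genes with a mean log2 signal above 13. The ribosomal medians lie at 4149 to 5859 on the PBS arrays and at 9799 to 16713 on the treated arrays. Those of the 294 other genes stay between 2682 and 3430. Those of the 15 other genes lie at 4896 to 6287 on the PBS arrays and at 8272 to 15005 on the treated arrays.

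The same arrays were high or low for most members within a group. PBS replicate 2 gave a lower signal than the other PBS arrays for 18 of the 19 bright members and for 171 of the 294 other bright genes. Low-dose replicates 2 and 3 both lay above replicates 1 and 4 for 17 of the 19, against 133 of the 294. High-dose replicates 1 and 2 lay above replicates 3 to 5 for 18 of the 19, against 126 of the 294. These members therefore share the array differences and are not independent measurements of a dose.

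The log2 difference between the high and the low dose is free of the PBS arrays, although the filter and the estimate of spread used them too. In this comparison few ribosomal protein genes differed. Of 31 tested members, 2 were higher at the high dose and 1 was lower, while 13.8% of the 6414 genes tested were higher and 15.2% lower (limma, Benjamini-Hochberg adjusted p under 0.05). Genes described as higher or lower passed this threshold, and ± after a log2 difference is its standard error. The median log2 difference was 0.14, against -0.04 over all genes. Over the 19 bright members it was 0.21, with 2 higher and 0 lower (4 and 0 at an unadjusted p under 0.05), and over the 294 other bright genes it was 0.25, with 109 higher and 20 lower. The median was 0.08 over the 17 large-subunit genes and 0.20 over the 14 small-subunit genes. Both higher members, Rpl19 and Rps4l, lost the call after quantile normalization, which left 0 higher and 4 lower (3 and 7 at an unadjusted p under 0.05) and a median of -0.06, and under several other settings.

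Rpl22, an RNA-binding protein of the large subunit that mice can live without, was the member that fell between the low and the high dose. Its signals were 304, 449 and 466 in PBS, 526, 681, 787 and 803 at 100 µM and 224, 271, 362, 334 and 392 at 5 mM. All low-dose arrays were above all others, and the PBS and high-dose arrays overlapped. The high dose was 2.18-fold lower than the low dose (log2 difference -1.13 ± 0.18, SE, adjusted p = 2.4e-04 in limma), and the low dose 1.71-fold higher than PBS (0.77 ± 0.21, adjusted p = 0.0131). High dose against PBS gave -0.35 ± 0.20 (adjusted p = 0.272). The fall from low to high dose passed in all 23 alternative fits, with -1.26 to -0.92, while the rise over PBS passed in 21 of 23. It gave 0.58 without PBS replicate 1 (adjusted p = 0.0637) and 0.65 with the mean of all tested probe sets of the gene (adjusted p = 0.0806). A second probe set of Rpl22, with mean signals of 21.9, 47.3 and 20.2, passed in no comparison.

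Rps4l, a relative of Rps4x, had signals of 5127, 4664 and 5520 in PBS, 3941, 3946, 4324 and 4331 after the low dose and 5368, 4369, 5878, 5347 and 5205 after the high dose. The low-dose arrays lay below those of both other groups. The high dose was 1.26-fold higher than the low dose (0.33 ± 0.11, adjusted p = 0.0308), a call lost in 6 of the 12 fits that left out 1 array. Low dose against PBS gave -0.30 ± 0.12 (adjusted p = 0.0903) and high dose against PBS 0.03 ± 0.12 (adjusted p = 0.891). Its probe set carries the suffix that marks probes shared between transcripts, so other genes may add to its signal.

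Rpl19, a large-subunit protein that reaches across to the small subunit, was also called between the doses, at 1.42-fold (0.51 ± 0.18, adjusted p = 0.0467). Its high-dose signals of 22131, 18990, 15953, 13493 and 14252 overlapped the low-dose signals of 10522, 13743, 12145 and 10748. The call was lost in 6 of the 12 fits that left out 1 array, those without low-dose replicates 1, 3 or 4 or high-dose replicates 1, 2 or 3. Rps24 (0.51 ± 0.20, adjusted p = 0.0632) and Rpl8 (0.48 ± 0.18, adjusted p = 0.0583) had differences of similar size that did not pass.

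**Figure D2:**
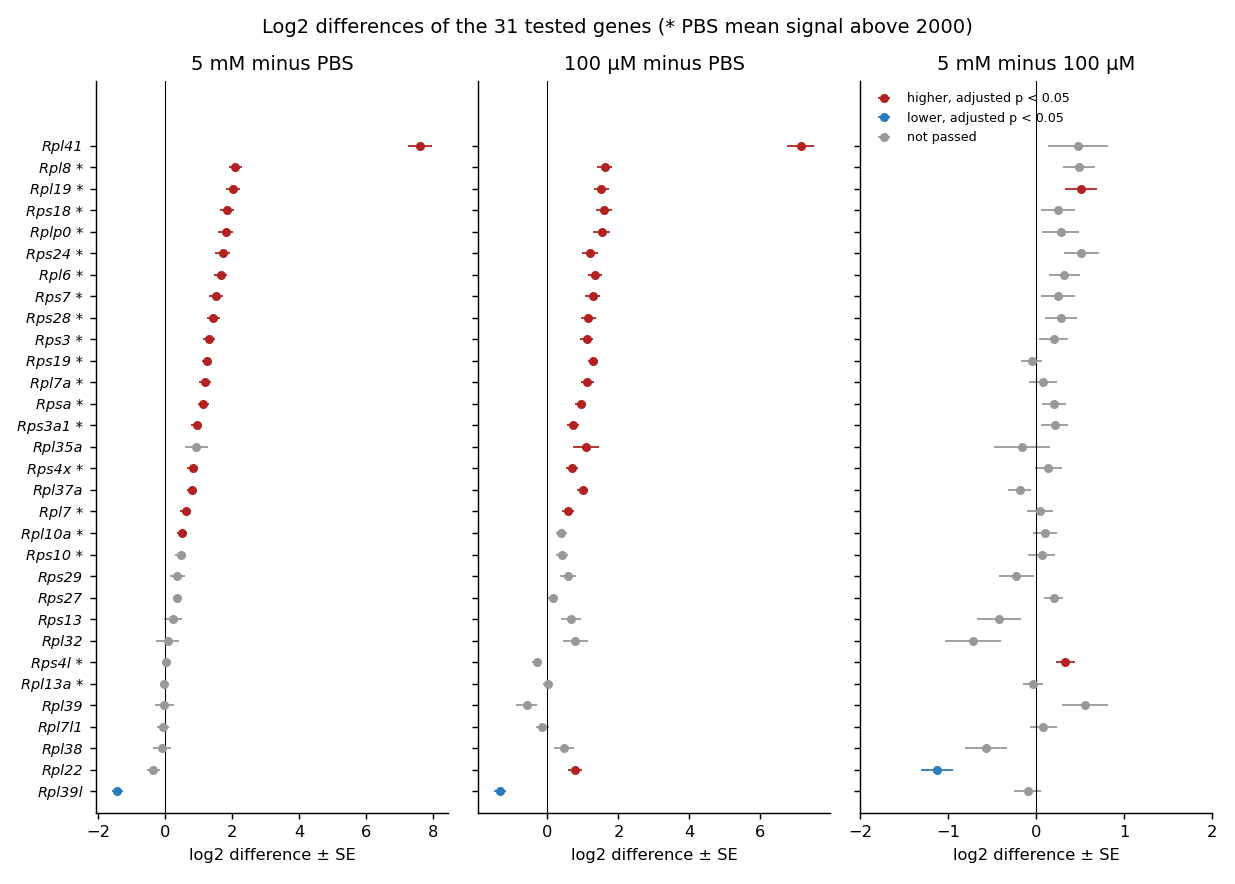
Log2 differences with standard errors for the 31 tested ribosomal protein genes in each of the 3 comparisons, from the limma fit, with stars at genes whose PBS mean is above 2000. Differences between the high and the low dose lie between -0.71 and 0.55 except for Rpl22 at -1.13, and the comparisons with PBS, which share the 3 PBS arrays, reach from -1.43 for Rpl39l to 7.60 for Rpl41.

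Against PBS and under the deposited scaling, most bright members gave a higher signal in both treated groups. In the high-dose group 18 of 31 members were higher and 1 lower, against 5.36% and 6.84% of the 6414 genes, and the median log2 difference was 0.82 against -0.01 over all genes. In the low-dose group 19 were higher and 1 lower, against 11.9% and 12.7% of all genes, with a median of 0.79 against 0.04. The signals of PBS and treated arrays did not overlap, with the treated arrays higher, for 20 members at the high dose (8.84% of all genes) and 21 at the low dose (17.2%). These 2 comparisons share the PBS arrays and are not separate evidence. Among the 19 and the 21 at the low dose is Rpl35a, a dim member that entered the fit through its treated arrays.

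Bright and dimmer members are given apart. Of the 19 members above the mark of 2000, 16 were higher at the high dose (median 1.23) and 15 at the low dose (median 1.12). None was lower in limma at either dose, and at an unadjusted p under 0.05 the counts lower were 0 at the high dose and 1 at the low dose. Of the 294 other genes above the mark, 58 were higher and 9 lower at the high dose (median 0.14), and 40 higher and 61 lower at the low dose (median -0.09). Of the 12 members at or below the mark, 2 were higher and 1 lower at the high dose (median 0.16), and 4 higher and 1 lower at the low dose (median 0.62). The 2 were Rpl37a and Rpl41, which was dim in PBS but among the brightest probe sets on the treated arrays. The 4 were Rpl37a, Rpl41, Rpl22 and Rpl35a. Rpl35a entered the fit through its treated arrays, so its call supports nothing here. Just inside the mark was Rpsa with a PBS mean of 2296, and just outside it Rpl37a with 1977.

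The members above the mark were also read in 2 ranges of PBS signal. Rpl7, Rps10, Rps4x and Rps3a1, with PBS means above 7000, differed by 0.46 to 0.94 at the high dose (median 0.72), and the 15 members with PBS means between 2000 and 7000 had a median of 1.43. Other genes of like level over all arrays also read higher. With a mean log2 signal above 13, 13 of 14 members were higher at the high dose (median 1.48) and 14 of 15 other genes (median 1.09). These 15 include Eef1a1, Ncl, Tpt1 and Npm1, the last of which did not pass (0.49 ± 0.17, adjusted p = 0.0792). At the low dose the counts were 13 of 14 (median 1.17) and 11 of 15 (median 0.87). That selection uses the treated arrays too and so favours genes that read high there. The part of the bright end of the PBS arrays in these differences was not tested.

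**Figure D3:**
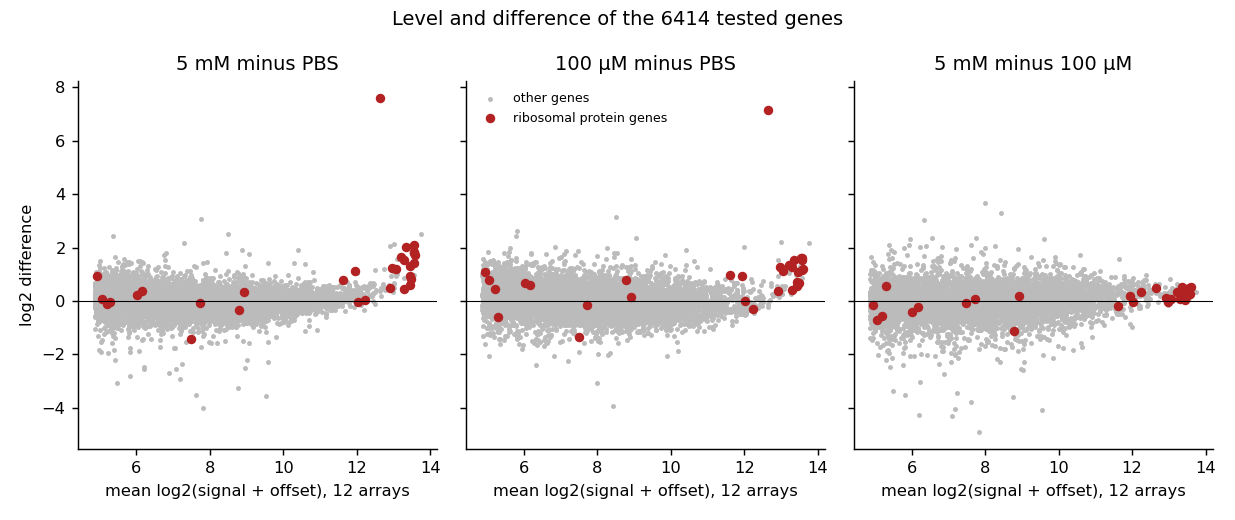
Log2 difference in each of the 3 comparisons against the mean log2 signal over the 12 arrays, for the 31 ribosomal protein genes and all other genes tested. In the panels against PBS, under the deposited scaling, most bright members at the right lie above 0, as do other genes of that level, with Rpl41 highest at 7.60 and 7.13, while in the panel between the doses the members have a median of 0.14.

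Quantile normalization, which forces the same distribution of signal on every array, changed the direction against PBS of several of the brightest members. At the high dose it left 12 members higher, 11 of them among the 18, and made 8 lower, namely Rpl39l, Rpl10a, Rpl13a, Rpl7, Rps10, Rps3a1, Rps4l and Rps4x, with a median of 0.21. At the low dose 13 of the 19 stayed higher, 7 were lower and the median was 0.40. The share of all genes called after quantile normalization was not counted in any comparison, so these counts have no background beside them. Directions given for Rpl10a, Rpl7, Rps10, Rps3a1 and Rps4x against PBS hold for the deposited scaling and turn under this one.

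Rplp0 encodes the base of the stalk that recruits the GTPases of translation. Its signals were 6429, 3448 and 5859 in PBS, 12856, 17468, 17082 and 11899 for the low dose and 22417, 23358, 15739, 13904 and 15269 for the high dose. Every treated array was above every PBS array, and the doses overlapped. The high dose was 3.50-fold higher than PBS (1.81 ± 0.22, adjusted p = 6.0e-05) and the low dose 2.88-fold higher (1.53 ± 0.23, adjusted p = 3.5e-04). High against low dose gave 0.28 ± 0.21 (adjusted p = 0.347).

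Rpsa, a small-subunit protein first known as a laminin receptor precursor, was also higher after both doses. It read 2761, 2020 and 2108 in PBS, 3796, 5108, 4785 and 3889 at 100 µM and 5955, 5719, 4810, 4164 and 4683 at 5 mM. No treated array fell into the PBS range. The difference from PBS was 2.20-fold at the high dose (1.14 ± 0.15, adjusted p = 1.4e-04) and 1.91-fold at the low dose (0.94 ± 0.16, adjusted p = 7.9e-04), with 0.20 ± 0.14 between the doses (adjusted p = 0.311).

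Rpl41, the smallest protein of the ribosome, stood apart from all other members. Its only probe set read 160, 267 and 44.2 in PBS, 16232, 23838, 23082 and 14976 after the low dose and 34106, 34685, 23252, 19733 and 24340 after the high dose. Counted from the brightest of 12488 probe sets, it ranked 4195, 3336 and 6999 on the PBS arrays and 1 or 2 on every treated array. The difference from PBS was 194-fold at the high dose (7.60 ± 0.37, adjusted p = 2.3e-09) and 140-fold at the low dose (7.13 ± 0.38, adjusted p = 2.5e-08). The doses overlapped, with 0.47 ± 0.34 between them (adjusted p = 0.328). Leaving out PBS replicate 3 lowered the difference from PBS to 6.94 at the high dose and 6.46 at the low dose. The probe set name carries a suffix for probes that match several sequences, so the signal cannot be given to Rpl41 alone.

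**Figure D4:**
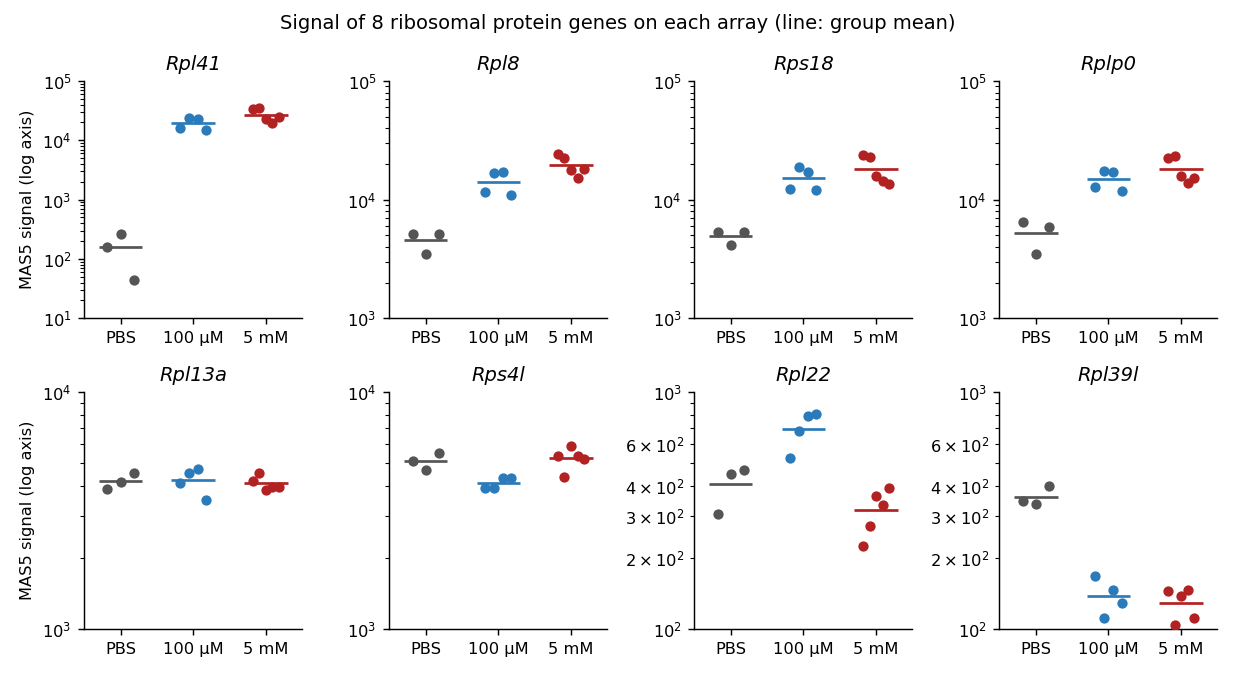
Signal of 8 ribosomal protein genes on each of the 12 arrays, in MAS5 units on log axes, with 3 PBS, 4 low-dose (100 µM) and 5 high-dose (5 mM) arrays and a line at each group mean. Rpl41 goes from 44.2 to 267 in PBS to at least 14976 after either dose, Rpl13a lies between 3510 and 4744 throughout, Rpl39l is lower after both doses, and Rpl22 is highest at the low dose.

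Of the large-subunit members above the mark, Rpl8 and Rpl19 differed most from PBS at the high dose. Rpl8, which lies beside the site of peptide bond formation, read 5167, 3466 and 5134 in PBS, 11686, 16685, 17063 and 10944 for the low dose and 24085, 22555, 17938, 15319 and 18010 for the high dose. The treated arrays were all above PBS, by 4.27-fold at the high dose (2.09 ± 0.20, adjusted p = 3.7e-06) and 3.06-fold at the low dose (1.61 ± 0.21, adjusted p = 8.7e-05). Rpl19 read 4854, 2857 and 4940 in PBS, and its treated arrays, given above, were all higher. Its difference from PBS was 4.07-fold at the high dose (2.02 ± 0.20, adjusted p = 5.3e-06) and 2.86-fold at the low dose (1.52 ± 0.21, adjusted p = 1.5e-04). A dim second probe set of Rpl19, with mean signals of 52.5, 49.3 and 37.3 in PBS, at the low and at the high dose, gave -0.42 ± 0.55 and -0.07 ± 0.57 against PBS and did not pass.

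Other large-subunit members were higher as well. Rpl6 was 3.14-fold higher at the high dose (1.65 ± 0.19) and 2.52-fold higher at the low dose (1.33 ± 0.20). Rpl7a, whose pyrimidine run was the longest of those shown, was 2.29-fold higher at the high dose (1.20 ± 0.18) and 2.17-fold higher at the low dose (1.12 ± 0.18), although the high-dose call was lost after quantile normalization. Rpl37a, just below the mark, was 1.74-fold higher at the high dose (0.80 ± 0.15) and 1.99-fold higher at the low dose (0.99 ± 0.15). Its 3 PBS arrays of 2223, 1721 and 1987 lay below all 9 treated arrays, the lowest of which read 2885.

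Rpl7 and Rpl10a were called higher at the high dose, and their direction turned after quantile normalization. The probe set of Rpl7 carries the same suffix as that of Rps4l, so other genes may add to its signal. Rpl7 was 1.53-fold higher at the high dose (0.62 ± 0.17, adjusted p = 0.0253) and gave -0.85 after quantile normalization. Rpl10a was 1.40-fold higher at the high dose (0.49 ± 0.15, adjusted p = 0.0455) and gave -0.62 after it. Rpl10a lost the call in 9 of the 12 fits that left out 1 array, and its second bright probe set, with PBS, low-dose and high-dose means of 3511, 3481 and 3664, gave 0.02 ± 0.19 and -0.03 ± 0.20 against PBS.

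Rpl13a, a large-subunit protein that also acts in a complex silencing inflammatory messages, passed in no comparison under the deposited scaling. It read 3891, 4149 and 4558 in PBS, 4130, 4552, 4744 and 3510 at 100 µM and 4218, 4537, 3845, 3962 and 3961 at 5 mM. The 3 groups overlapped, and the differences were -0.03 ± 0.12 for high dose against PBS (adjusted p = 0.896), 0.01 ± 0.13 for low dose against PBS (adjusted p = 0.983) and -0.04 ± 0.11 between the doses (adjusted p = 0.834). Under quantile normalization the high dose was lower than PBS, at -0.44 with an adjusted p of 0.0291. Its group means were 4199 ± 336 (SD, n = 3), 4234 ± 546 (n = 4) and 4105 ± 278 (n = 5).

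Among small-subunit members, Rps18 differed most from PBS. This protein of the subunit's head contacts transfer RNA. Its signals were 5295, 4117 and 5363 in PBS, 12289, 18969, 17221 and 12081 after the low dose and 23576, 23025, 15937, 14410 and 13647 after the high dose. Treated arrays were all above PBS, and the doses overlapped. The difference from PBS was 3.60-fold at the high dose (1.85 ± 0.21, adjusted p = 2.7e-05) and 3.03-fold at the low dose (1.60 ± 0.22, adjusted p = 1.6e-04), with 0.25 ± 0.19 between the doses (adjusted p = 0.373).

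Rps24, Rps7 and Rps19 are among the members found mutated in Diamond-Blackfan anaemia, an inherited failure of red cell production. Rps24 was 3.27-fold higher than PBS at the high dose (1.71 ± 0.21) and 2.29-fold higher at the low dose (1.20 ± 0.22). Its dim second probe set, with means of 22.5, 24.7 and 17.3, passed in no comparison. That probe set gave -0.33 ± 0.32 at the high dose and 0.09 ± 0.34 at the low dose against PBS. Rps7, which also binds the p53 regulator MDM2, was 2.87-fold higher at the high dose (1.52 ± 0.21) and 2.41-fold higher at the low dose (1.27 ± 0.22). Rps19, the gene most often mutated in that disease, was higher after both doses. It read 4157, 3986 and 4324 in PBS, 9638, 10545, 11436 and 9041 for the low dose and 10082, 11632, 9642, 8698 and 9078 for the high dose. The highest PBS array, at 4324, was far below the lowest treated array, at 8698. Its difference from PBS was 2.35-fold at the high dose (1.23 ± 0.13, adjusted p = 9.4e-06) and 2.43-fold at the low dose (1.28 ± 0.13, adjusted p = 1.3e-05), with -0.05 ± 0.12 between the doses (adjusted p = 0.783).

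Rps28, on the probe set that stands for the gene, and Rps3 were higher after both doses and lost these calls after quantile normalization. Rps28 was 2.70-fold higher at the high dose (1.43 ± 0.20) and 2.22-fold higher at the low dose (1.15 ± 0.21). On a second probe set, whose suffix marks a family of related sequences, its mean signal went from 2159 ± 364 (SD, n = 3) in PBS to 16665 ± 4865 (n = 4) at 100 µM and 20082 ± 5714 (n = 5) at 5 mM. That is 9.07-fold higher at the high dose (3.18 ± 0.23) and 7.52-fold higher at the low dose (2.91 ± 0.24), and the remaining dim probe set gave -0.07 ± 0.35 and 0.04 ± 0.36. The 3 probe sets of this gene therefore disagree. Rps3, which lines the channel where messages enter, was 2.47-fold higher at the high dose (1.31 ± 0.18) and 2.15-fold higher at the low dose (1.10 ± 0.19).

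Rps3a1, Rps4x and Rps10 are the small-subunit members above 7000 in PBS, and all 3 turn direction after quantile normalization. Rps3a1 was 1.92-fold higher at the high dose (0.94 ± 0.17) and 1.66-fold higher at the low dose (0.73 ± 0.17), and gave -0.35 and -0.30 after quantile normalization. Rps4x was 1.77-fold higher at the high dose (0.82 ± 0.16) and 1.61-fold higher at the low dose (0.68 ± 0.17), and gave -0.52 and -0.40. Rps10, with a high-dose difference of 0.46 ± 0.17 (adjusted p = 0.083) and a low-dose difference of 0.40 ± 0.17 (adjusted p = 0.105), did not pass although its treated arrays, from 8927 upwards, all lay above its PBS arrays, which reached 8544. It gave -0.94 at the high dose after quantile normalization.

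Rpl39l was the member that fell after both doses under the deposited scaling. It is a paralog of Rpl39, a protein of the tunnel through which the new chain leaves, and is best known from male germ cells. Its signals were 345, 337 and 402 in PBS, 167, 111, 146 and 128 after the low dose and 144, 103, 138, 146 and 111 after the high dose. The PBS arrays all lay above the treated arrays, and the doses overlapped. The signal was 2.69-fold lower than PBS at the high dose (-1.43 ± 0.17, adjusted p = 3.5e-05) and 2.52-fold lower at the low dose (-1.34 ± 0.18, adjusted p = 1.1e-04), with -0.09 ± 0.15 between the doses (adjusted p = 0.694). Both falls passed in all 23 alternative fits, with -1.50 to -1.25 at the high dose and -1.52 to -1.18 at the low dose. It lies far from the bright end, at a PBS mean of 361 ± 35.6 (SD, n = 3).

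The other paralog pairs gave little. Rpl39 itself was dim, with means of 36.3 ± 11.1 in PBS (n = 3), 21.1 ± 8.60 at the low dose (n = 4) and 35.2 ± 9.87 at the high dose (n = 5), and passed in no comparison. Rpl7l1, a paralog of Rpl7, had means of 216 ± 41.7, 194 ± 37.3 and 204 ± 19.3 and passed in none. Rps27, a zinc-finger protein of the small subunit, read 360, 437 and 448 in PBS, 449, 466, 475 and 442 for the low dose and 498, 603, 518, 485 and 546 for the high dose. All 5 high-dose arrays lay above the other 7, but the difference from PBS of 0.35 ± 0.12 did not pass (adjusted p = 0.0686). Rps27 passed at the high dose after quantile normalization, with 0.42 (adjusted p = 0.0355). Its paralog Rps27l, a p53 target, was too dim to test.

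The remaining tested members, Rpl32, Rpl35a, Rpl38, Rps13 and Rps29, were dim, with group means from 8.29 to 76.3 on the probe sets that stand for them. Rpl35a read 5.26, 10.1 and 9.49 in PBS, 24.9, 12.8, 46.6 and 40.1 for the low dose and 9.94, 24.9, 37.1, 30.2 and 27.8 for the high dose. It passed at the low dose alone, at 1.09 ± 0.36 against PBS (adjusted p = 0.0375). Without low-dose replicate 3 it was too dim to be tested, so it entered the fit through its treated arrays and its call supports nothing here. The call was lost in 5 of the 11 fits that left out 1 array and tested it. The high-dose difference of Rpl35a was 0.93 ± 0.35 (adjusted p = 0.0948), and the difference between the doses was -0.16 ± 0.32. The low-dose differences from PBS of Rpl32 (0.79 ± 0.36), Rpl38 (0.47 ± 0.27), Rps13 (0.66 ± 0.29) and Rps29 (0.59 ± 0.22) did not pass.

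Members with and without a pyrimidine run were found on both sides of the threshold. Rpl41, Rplp0, Rps28, Rps3, Rps3a1 and Rps4x had no pyrimidine run in the window searched and were higher at the high dose under the deposited scaling. Rpl22 and Rpl7l1 had no run and did not pass there. Rpl10a, Rpl19, Rpl37a, Rpl6, Rpl7a, Rps18, Rps19, Rps24, Rps7 and Rpsa had a run and were higher. Rpl13a, Rpl35a, Rpl38, Rpl39, Rps10, Rps13 and Rps27 had a run and did not pass, and Rpl39l had a run and was lower. Whether the run goes with the difference from PBS was not tested. The array measures how much of each message is present and not its translation, which is what the TOP start is known to control.

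Genes that work with the ribosomal proteins were read for comparison. Of 16 tested genes for other TOP messages and ribosome partners, 2 were higher and 0 lower between the doses (median 0.16), and 4 higher and 0 lower at the high dose against PBS (median 0.30), with 0 lower also at an unadjusted p under 0.05 in limma. At the low dose 3 were higher and 1 lower (median 0.24). The share higher was 12.5% between the doses, near the 13.8% of all tested genes, 25.0% at 5 mM against PBS where all genes gave 5.36%, and 18.8% at 100 µM where all genes gave 11.9%. All 4 genes higher at 5 mM and all 3 higher at 100 µM had PBS means above 2000. Of the 294 genes above that mark that are not members, 19.7% were higher at 5 mM and 13.6% at 100 µM. The part of the bright end in these shares was not tested. Eef1a1, the elongation factor that brings transfer RNA to the ribosome, was 2.51 ± 0.23 higher at the high dose on the log2 scale (adjusted p = 2.5e-06) and 2.17 ± 0.24 higher at the low dose (adjusted p = 2.2e-05). Tpt1, a TOP message for a growth-related protein, was 0.99 ± 0.16 higher at the high dose and 0.87 ± 0.16 at the low dose. Eef1d, an exchange factor for Eef1a1, fell by 0.65 at the low dose against PBS (SE 0.13, adjusted p = 0.0021) and was 0.79 ± 0.11 higher at the high than at the low dose.

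Genes of ribosome assembly and ribosomal RNA synthesis were counted in the same way. Of 37 tested, 13 were higher and 5 lower at the high than at the low dose (median 0.18), 4 higher and 3 lower at the high dose against PBS (median 0.02), and 5 higher and 10 lower at the low dose against PBS (median -0.08). Between the doses 35.1% of the list was higher and 13.5% lower, where all tested genes gave 13.8% and 15.2%. At 5 mM against PBS the shares were 10.8% and 8.11%, where all genes gave 5.36% and 6.84%. At 100 µM they were 13.5% and 27.0%, where all genes gave 11.9% and 12.7%. Wdr12, with means of 16.1 in PBS, 34.2 at 100 µM and 40.2 at 5 mM, is among the genes higher at each dose. It was dim in PBS and its treated arrays carried it past the filter, so its calls support nothing here. Pes1 and Bop1, partners in large-subunit maturation, fell at the low dose by 0.87 and 1.04 on the log2 scale. Pes1 was 0.84 ± 0.13 higher at the high than at the low dose, and Bop1 0.57 ± 0.18. Nifk, a nucleolar protein that binds Ki-67, had the opposite pattern, with 1.36 ± 0.20 at the low dose against PBS and -0.99 ± 0.17 between the doses. Whether this list differs from the ribosomal protein genes in its response was not tested.

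Of 15 tested genes for signalling to the ribosome, 1 was higher and 1 lower in each comparison with the high-dose group, and 1 was higher and 3 lower at the low dose against PBS. A single gene is 6.67% of this list, at or below the shares of all tested genes but for the 5.36% higher at 5 mM against PBS, and the 3 lower ones are 20%, against 12.7%. With so few genes these counts are no result about the list. Mtor, the kinase that promotes translation of TOP messages, was lower at both doses, by 0.55 ± 0.14 at the high dose (adjusted p = 0.0187) and 0.47 ± 0.15 at the low dose (adjusted p = 0.0279) on the log2 scale. Mlst8, its partner, was 0.75 ± 0.16 higher at the low dose (adjusted p = 0.0042). Rps6kb2, a kinase of ribosomal protein S6, gave -1.15 ± 0.38 at the low dose (adjusted p = 0.0367). Eif4ebp1, a repressor of cap-dependent translation, was 0.53 ± 0.17 higher at the high dose than in PBS (adjusted p = 0.0482) and 0.59 ± 0.15 higher than at the low dose.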

How the data were processed

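The 12 arrays were grouped by their titles into 3 PBS, 4 low-dose and 5 high-dose samples. The deposited values are intensities on a linear scale, MAS5 signals per the submitters' processing notes; their version, scaling target and detection calls were not given. MAS5 compares perfect-match with mismatch probes. The mean after trimming 2% at each end differed by 0.0195% between arrays, so the deposited scaling was kept. Arrays have no read depth, and their number limits the precision. Probe sets were named from GEO's platform annotation, updated through RefSeq gene tables: of 12488 probe sets, 66 were controls, and of the others 10833 had a single symbol, 396 several and 1193 none listed. Probe sets with several symbols named no gene, which left out 39 with a ribosomal symbol.

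The log2 of each intensity plus 10.1 (the 20th percentile of all intensities) was analysed. Probe sets with a mean log2 above the 30th percentile were tested, 8695 in all. A gene was represented by its brightest tested probe set on average. All 12 arrays were fitted together in limma 3.58.1 (R 4.3.3; lmFit, eBayes with a mean-variance trend), two-sided, with Benjamini-Hochberg adjustment over all tested probe sets and a threshold of 0.05. The fit was tested on simulated data. Medians over a list are descriptions without a test.

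Given in full were the members with the 5 largest rises and falls per comparison whose arrays did not overlap, the stalk proteins, named paralogs and p53 regulators, and up to 4 genes per pathway list. Other members, and Rpl37a, Rpl13a and Rps19 in particular, were described further after their values were seen. The members and lists were chosen with earlier results of these data known. Alternatives were quantile and common-median scaling, other offsets, filters and variance models, array weights, pairwise fits, the mean of all probe sets of a gene, no bright probe sets, a replicate block and leaving out each array.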

Additional observations from a re-analysis of the deposited data

Results flagged for a closer look

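Rps29, a small-subunit protein gene, read 88.5 on high-dose replicate 5 and 51.7 to 60.9 on the other 4 high-dose arrays, which set that array far from the rest of its group. Of 62 groups of member values looked at, this was the 1 that stood out, and chance marks about 1 in 20. The gene passed in no comparison.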

How the results depend on the processing

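More members were higher than lower against PBS under every alternative, but by a small margin under quantile normalization and without bright probe sets. The share of all genes called was counted in the main fit only. Quantile normalization left 12 higher and 8 lower at the high dose (median 0.21) and 13 higher and 7 lower at the low dose (median 0.40). Without probe sets of PBS mean above 2000, 2 members were higher and 1 lower at the high dose (median 0.16) and 4 higher and 1 lower at the low dose. The 4 include Rpl35a, whose call supports nothing here. A filter at the 50th percentile gave a median of 1.14 at the high dose, and common median scaling 2 lower at the low dose. Leaving out each array gave 16 to 18 higher and 1 lower at the high dose (medians 0.73 to 0.87), and 16 to 19 higher and 1 lower at the low dose (medians 0.71 to 0.95). Between the doses, 0 were higher in limma after quantile normalization, with no filter, with no variance trend, with the mean of all probe sets of a gene and without probe sets of PBS mean above 2000. At an unadjusted p under 0.05 these were 3, 4, 5, 3 and 0. Array weights left 1 higher. Quantile normalization made 4 lower, and no filter or no variance trend 2 lower. Without probe sets of PBS mean above 2000 the median was -0.17. Leaving out each array gave 0 to 3 higher, 1 to 2 lower and medians of 0.07 to 0.21. In settings added after seeing the data, 1 was higher without both high-dose replicates 1 and 2, and 4 without both low-dose replicates 2 and 3. The number of arrays and the bright end limit what can be told, and beyond what these settings show by their construction the cause was not tested.

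Quantile normalization reversed the difference between the doses of Rpl10a (-0.089), Rpl7 (-0.20), Rpl7a (-0.14), Rplp0 (-0.051), Rps10 (-0.21), Rps18 (-0.069), Rps28 (-0.018), Rps3 (-0.063), Rps3a1 (-0.052), Rps4x (-0.12) and Rpsa (-0.026), that of high dose and PBS for Rpl10a (-0.62), Rpl32 (-0.042), Rpl7 (-0.85), Rpl7l1 (0.0016), Rps10 (-0.94), Rps3a1 (-0.35), Rps4l (-0.66) and Rps4x (-0.52), and that of low dose and PBS for Rpl10a (-0.53), Rpl13a (-0.20), Rpl7 (-0.64), Rps10 (-0.73), Rps3a1 (-0.30) and Rps4x (-0.40). Common median scaling reversed the difference between the doses of Rpl13a (0.078), Rpl39l (0.016) and Rps19 (0.065), that of high dose and PBS for Rps4l (-0.041), and that of low dose and PBS for Rpl13a (-0.18) and Rps27 (-0.040). Array weights reversed high dose against PBS for Rpl32 (-0.18) and Rpl7l1 (0.053) and low dose against PBS for Rpl13a (-0.013). Fits that left out 1 array spanned 0 between the doses for Rpl13a (-0.12 to 0.020), Rpl35a (-0.42 to 0.037), Rpl7 (-0.066 to 0.14), Rpl7a (-0.011 to 0.19), Rpl7l1 (-0.044 to 0.17), Rps10 (-0.023 to 0.14) and Rps19 (-0.11 to 0.0080). They did so for high dose against PBS in Rpl13a (-0.086 to 0.028), Rpl32 (-0.17 to 0.28), Rpl39 (-0.16 to 0.15), Rpl7l1 (-0.20 to 0.068) and Rps4l (-0.030 to 0.096), and for low dose against PBS in Rpl13a (-0.052 to 0.092).

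Samples with the same replicate number in their titles were no more alike than others. Deviations from the group means correlated at -0.18 to 0.15 over 10 pairs with the same number. Over 37 pairs with different numbers they correlated at -0.16 to 0.18. With so few arrays per group, this cannot exclude a shared culture or day. With a replicate block, 2 members were higher and 1 lower between the doses, 17 and 1 at the high dose against PBS, and 15 and 1 at the low dose. Rpl32 (-0.015) and Rpl38 (0.023) changed sign at the high dose.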

Other observations

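The 36 tested probe sets that list a ribosomal symbol among several symbols were left out of the members, because they name no single gene. They read much like the members. Against PBS, 23 of 36 were higher and 0 lower at the high dose (limma, median log2 difference 0.91), and 23 higher and 0 lower at the low dose (median 0.85). At an unadjusted p under 0.05 the counts were 26 and 0, and 24 and 0. Of all 8695 probe sets tested, 5.68% were higher at the high dose and 12.8% at the low dose. Between the doses 3 were higher and 3 lower (median 0.12). Of the 23 with a PBS mean above 2000, 21 were higher at the high dose (median 1.13) and 19 at the low dose (median 1.04).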
